A study of Mus musculus with 9 samples.

Results

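The transcripts described here encode enzymes that convert pyruvate to acetyl-CoA, turn the citrate cycle and burn fatty acids. The kinases that inhibit the first of these steps are included, as are the coactivators and nuclear receptors best known for controlling these enzymes. The members were listed by function, with earlier results of these data known, and are 48 genes, all of them among the 23337 gene symbols of the count table. RNA-seq was done on immortalised mouse embryonic fibroblasts (MEFs) of C57BL/6 x 129 background that lack Cebpb, the gene of the transcription factor C/EBPβ. They carried stably an empty vector (EV), or a plasmid with the long isoform LAP or the truncated isoform LIP of rat C/EBPβ, with 3 libraries in each group, and stable cells were selected with Zeocin. All 9 libraries therefore share the knockout, and the comparisons ask what each isoform does to these transcripts when it is the only C/EBPβ present. The sources do not say whether the libraries of a group came from separate transfections or cultures. The p-values therefore rest on the spread between these libraries, which may be technical. Those of the edgeR and DESeq2 fits also rest on variance shared over genes.

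Pyruvate enters the citrate cycle as acetyl-CoA through the pyruvate dehydrogenase complex, which pyruvate dehydrogenase kinases switch off by phosphorylation. Long-chain fatty acids are first joined to coenzyme A, cross the inner mitochondrial membrane as carnitine esters and are then shortened by beta-oxidation, whose electrons pass through the electron transfer flavoprotein to the respiratory chain. PPAR receptors and PGC-1 coactivators are known to raise transcription of many of these genes in muscle, liver and brown fat, where the pathway is most active.

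The libraries held 24839139 to 33522082 counts, so 3 counts corresponded to 0.0895 to 0.121 CPM, the read count scaled to library size with TMM factors. Of 8 fibroblast markers, 7 were at or above 1 CPM. Their summed level was 30300 to 33200 CPM in EV, 25700 to 36700 CPM in LAP and 15400 to 26500 CPM in LIP, and the part of this difference in the results below was not tested. The markers of macrophages, endothelium, muscle and adipocytes summed to 8.91 CPM at most in any library and list. Ptprc, Pecam1, Plin1 and Rbfox3 were listed at 0. Epithelial keratins were present, with 389 to 797 CPM for the whole epithelial list, and of the neuronal list Tubb3 alone was above 1 CPM. Cebpb itself was counted at 25.2 to 33.3 CPM in every library, EV included, so its counts do not check the labels. The libraries are named by group and replicate number (LIP 2 is the second LIP library), and LIP 2, LIP 3 and LAP 2 stood apart for many of these transcripts.

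Without a replicate block, none of the members passed an adjusted p of 0.05 in edgeR's quasi-likelihood test in any of the 3 comparisons, and none did with DESeq2 or the edgeR exact test. With the replicate number as a block, 4 of the 47 members tested, namely Pdk1, Pdk4, Sucla2 and Cpt1a, were lower in LIP than in LAP at an adjusted p under 0.05, beside 4.79% of all genes. LIP and LAP libraries of the same number deviated together from their group means, and the block called 0 members in the other comparisons. With 3 pairs, the block fit has little spread of each gene's own to draw on. Its p-values therefore rest largely on variance shared over genes. Of the 48 genes, 47 had at least 1 count and were tested. Among all genes tested, 0.396% were called in LIP against EV, 0.0606% in LAP against EV and 1.05% in LIP against LAP. Without the block and at an unadjusted p under 0.05, 3 of 47 members were lower in LIP than in EV, namely Pdk1, Pdk4 and Sucla2, and 0 were higher, beside 6.75% and 4.23% of all genes. The same 3 genes were lower in LIP than in LAP and 0 were higher, beside 5.98% and 3.3% of all genes. Because these comparisons share the LIP libraries, the second is not independent of the first. In LAP against EV, 0 members were lower and 0 higher at that level, beside 1.34% and 1.93% of all genes. Without the block, the share of members called was thus near that of all genes, or below it, in each direction. With the block, the 4 members called lower in LIP than in LAP were 8.51%, beside 4.79% of all genes.

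The median log2 fold change of the members was -0.11 in LIP against EV, where the median of all genes tested was 0.039, and 32 of the 47 were below 0. It was -0.11 in LIP against LAP, where all genes had 0.021, and 38 of the 47 were below 0. It was 0.016 in LAP against EV, the same as over all genes, and 18 of the 47 were below 0. Over the 44 members with a mean of at least 1 CPM the medians were -0.11 in LIP against EV, -0.11 in LIP against LAP and 0.015 in LAP against EV. The 2 lower medians rested on 1 library. Without LIP 2 the median was -0.0031 against EV and -0.024 against LAP, and 24 and 27 of the 47 members were below 0. With scaling by total counts, 31 members were below 0 in LIP against EV, 30 in LIP against LAP and 25 in LAP against EV. The medians of the members were then -0.077, -0.054 and -0.014, beside 0.078, 0.08 and -0.017 over all genes.

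**Figure D1:**
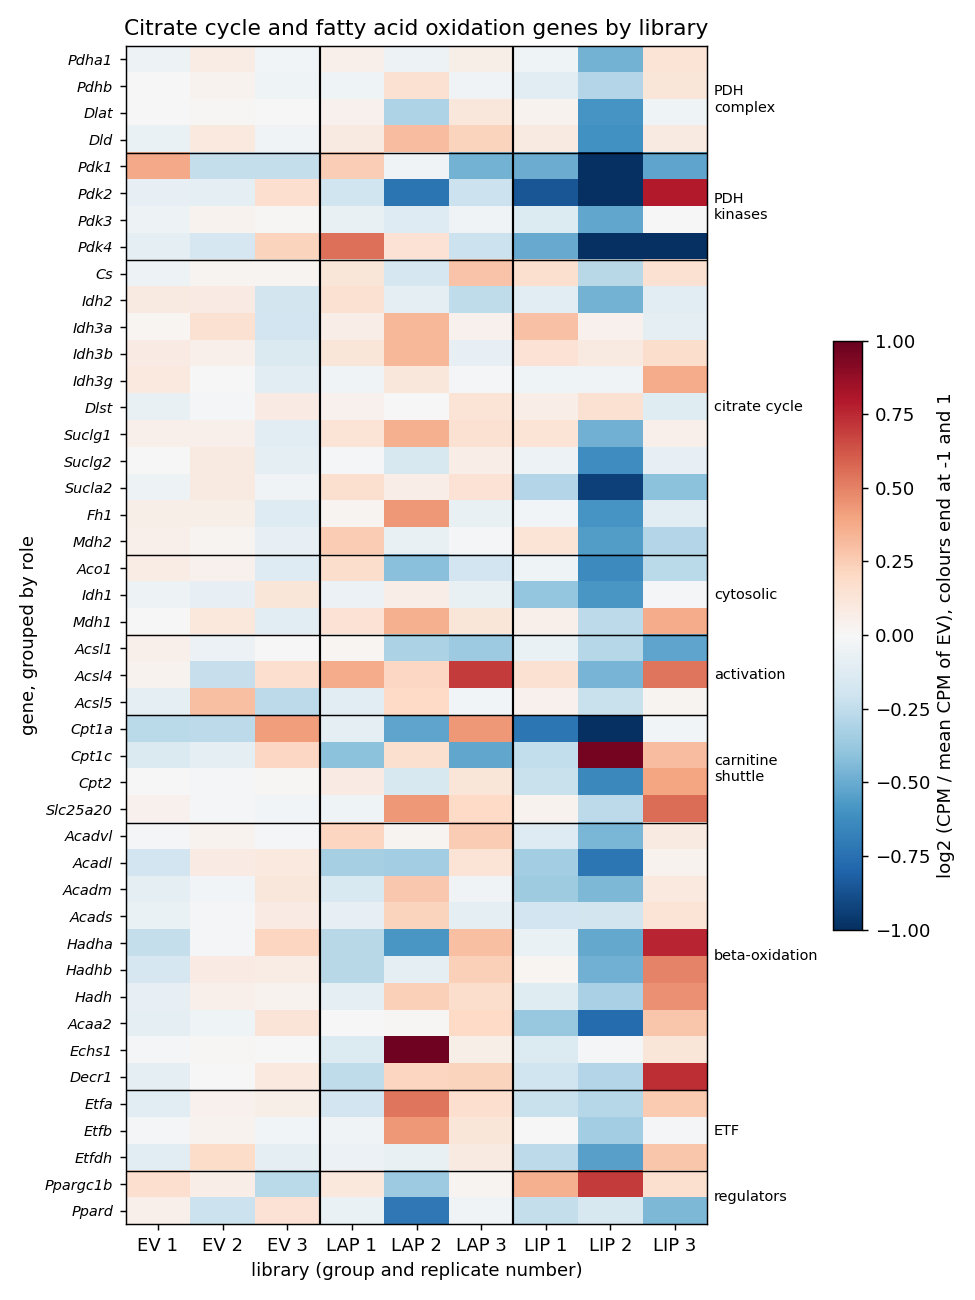
Colours give log2 of each library's CPM over the mean CPM of the 3 EV libraries, for the 44 members with a mean of at least 10 counts, grouped by role (y axis), in the 9 libraries (x axis). Blue fills most of the LIP 2 column, which was the lowest of all 9 libraries for 31 of the 44 genes, while LIP 3 was red for several enzymes of beta-oxidation.

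The levels of the members varied most between the LIP libraries. LIP 2 had the lowest level of all 9 libraries for 31 of the 44 members with a mean of at least 10 counts (70.5%). It was the lowest for 21.9% of the 12446 genes of that depth. Its TMM factor was the highest of the 9, at 1.102 against 0.9488 to 1.02, and a higher factor lowers the CPM. LIP 3 was the highest of all 9 for 12 of the 44 (27.3%, all genes 17.9%). The median over members of the SD of log2(CPM + 0.5) was 0.099 in EV, 0.204 in LAP and 0.314 in LIP. Over all genes it was 0.143, 0.237 and 0.271, so the members were tighter than the typical gene in EV and looser in LIP. The genes compared were not matched for level. The summed level of all members was 4830 to 5140 CPM in EV, 5030 to 5270 CPM in LAP, and 4910, 3820 and 5350 CPM in the LIP libraries 1 to 3.

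The 3 members with the smallest p in LIP against EV and against LAP are introduced here with the bases before their start, since a factor that binds DNA is the agent compared. The sequences are RefSeq's on GRCm38.p6, written 5′ to 3′ on the strand of the gene, 250 bases up to the base before the annotated start. Capitals mark a CCAAT box (CCAAT, here as ATTGG of the other strand) in Pdk4 and a GC box (GGGCGG or CCGCCC) in the others. The stretch common to the windows before Hadha and Hadhb, divergent neighbours whose starts are 273 bases apart, is added because both enzymes were highest in LIP 3 and lowest in LIP 2 among the LIP libraries, a choice made after their values were seen. It is given on the strand of Hadhb. The windows are chr6:5496279-5496528 (minus strand) for Pdk4, chr2:71872974-71873223 (plus strand, the first of the starts listed) for Pdk1, chr14:73552536-73552785 (plus strand) for Sucla2 and chr5:30155003-30155230 (plus strand) for the shared stretch.
Pdk4: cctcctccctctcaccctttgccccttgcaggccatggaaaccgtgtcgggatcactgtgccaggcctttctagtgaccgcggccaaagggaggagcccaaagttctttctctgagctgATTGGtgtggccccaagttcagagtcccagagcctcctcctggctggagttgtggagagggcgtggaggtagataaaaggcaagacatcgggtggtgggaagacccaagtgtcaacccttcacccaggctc
Pdk1: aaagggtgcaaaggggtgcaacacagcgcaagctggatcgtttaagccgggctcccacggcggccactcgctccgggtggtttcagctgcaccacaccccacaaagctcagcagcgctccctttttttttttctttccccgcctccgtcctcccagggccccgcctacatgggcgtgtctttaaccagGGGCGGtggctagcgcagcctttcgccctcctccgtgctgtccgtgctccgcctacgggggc
Sucla2: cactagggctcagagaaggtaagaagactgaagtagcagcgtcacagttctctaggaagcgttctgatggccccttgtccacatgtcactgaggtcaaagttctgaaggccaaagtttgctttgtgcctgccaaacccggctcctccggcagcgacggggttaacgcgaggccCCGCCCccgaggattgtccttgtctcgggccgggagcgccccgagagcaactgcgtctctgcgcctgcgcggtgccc
Hadha and Hadhb: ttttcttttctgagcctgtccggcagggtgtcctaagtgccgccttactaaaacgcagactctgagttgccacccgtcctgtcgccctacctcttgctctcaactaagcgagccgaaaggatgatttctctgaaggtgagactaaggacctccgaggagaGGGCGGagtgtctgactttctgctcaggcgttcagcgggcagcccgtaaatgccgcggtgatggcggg

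Promoters of 44 of the 48 members were matched, each searched on both strands from 250 bases before to 50 bases after the start. The C/EBP motif TTNNGCAA was found in 4 of the 44 (Acads, Dld, Ogdh and Pdhb, 9.09%) and in 12.2% of all genes. It was not in the windows of Pdk1, Pdk4, Sucla2, Hadha or Hadhb. The motif of the estrogen-related receptors, TCAAGGTCA, was in 0 of the 44 (0.466% of all genes), and the PPAR repeat, AGGTCA and again AGGTCA with 1 base between, in 0 of the 44 (0.0481% of all genes). The NRF1 core TGCGCATGC was in Acadm, Etfdh and Ogdh, 3 of the 44 (6.82%, all genes 1.72%). Of the letters searched after the values were seen, GGGCGG was in 32 of the 44 (72.7%, all genes 38.2%), CCAAT in 23 (52.3%, all genes 41.1%) and the hypoxia core ACGTG in 9 (20.5%, all genes 21.8%). These matches describe letters in the windows and not binding.

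None of the subunits of the pyruvate dehydrogenase complex passed the threshold. Pdha1 and Pdhb encode the subunits of its decarboxylase, Dlat the acetyltransferase and Dld the dehydrogenase that it shares with the 2-oxoglutarate complex. All 4 had slightly negative log2 fold changes in LIP against EV, from -0.17 to -0.087, with a smallest adjusted p of 0.706. Without LIP 2, Pdha1, Pdhb and Dld turned to 0.041, 0.0011 and 0.084. Against LAP they were -0.30 to -0.095. Pdha1 was counted at 222, 243 and 226 CPM in EV, 238, 222 and 240 CPM in LAP, and 223, 166 and 253 CPM in LIP. LIP 2 was the lowest of the 9 libraries for all 4 genes, and for Pdha1 LIP 3 was the highest. Dld was the only one whose LIP and LAP libraries did not overlap, at 145, 89.5 and 145 CPM in LIP and 145, 169 and 159 CPM in LAP, and the gap is lost in rounding. Groups did not overlap in the lower direction for 5 of the 47 members in LIP against LAP (all genes 6.9%) and in the higher direction for 1, Ppargc1b (all genes 5.91%).

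Of the kinases that inhibit this complex, Pdk4 and Pdk1 were lower in LIP at an unadjusted p under 0.05. Pdk4, the kinase known to rise in starvation and to be induced by PPAR and glucocorticoid signals, was counted at 10.4, 9.82 and 12.9 CPM in EV and 16.2, 12.2 and 9.51 CPM in LAP. In LIP it was at 7.8, 5.24 and 1.52 CPM. All 3 LIP libraries were below all EV and all LAP libraries, and LIP 3, with 47 reads, was the lowest. The log2 fold change was -1.19 ± 0.421 (SE) in LIP against EV, with an adjusted p of 0.307, and -1.37 ± 0.408 in LIP against LAP, with an adjusted p of 0.148. With the replicate number as a block the latter was -1.56 ± 0.241 (adjusted p = 3.88e-07). Without LIP 3 these were -0.75 and -0.94. The EV and LAP libraries overlapped, with a log2 fold change of 0.18 ± 0.216.

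Pdk1, a kinase known as a target of hypoxia-inducible factor, was counted at 23.3, 15.2 and 15.2 CPM in EV, 21.2, 17.5 and 12.9 CPM in LAP, and 12.7, 6.91 and 12.4 CPM in LIP. The LIP libraries lay below the others, but the highest of LIP and the lowest of LAP were nearly equal. The log2 fold change was -0.75 ± 0.266 against EV (adjusted p = 0.312) and -0.67 ± 0.284 against LAP (adjusted p = 0.441). With the replicate block the latter was -0.69 ± 0.211 (adjusted p = 0.0264). Without LIP 2 it was -0.52 and -0.44. For Pdk1, Pdk4 and Sucla2 a two-sided exact permutation test of the CPM gave p = 0.1 in both comparisons, the smallest that 3 against 3 libraries allow.

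Per length, Pdk3 had the highest count of the 4 kinases, with 34.3 CPM per kb of exon in EV against 3.45 for Pdk1, 3.17 for Pdk4 and 1.51 for Pdk2. Pdk1 and Pdk2 have more than 1 RefSeq transcript, and members of that kind were often counted low, so the order and the shares are those of the table. Of the summed CPM per kb of the 4, Pdk3 made up 78.8 to 83.1% in EV, 76.4 to 83.7% in LAP and 85 to 87% in LIP. Pdk4 made up 6.65 to 8.63%, 6.81 to 10.9% and 1.1 to 6.08%. The level of Pdk3 itself differed little, with 72.5 ± 2.27 CPM (SD, n = 3) in EV and 63.1 ± 11.2 CPM in LIP, and a log2 fold change of -0.20 ± 0.164. Pdk2 was at 3.2, 3.17 and 3.81 CPM in EV and 2.96, 2.05 and 2.92 CPM in LAP, which did not overlap. In LIP it was scattered, at 1.88, 1.67 and 5.88 CPM.

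**Figure D2:**
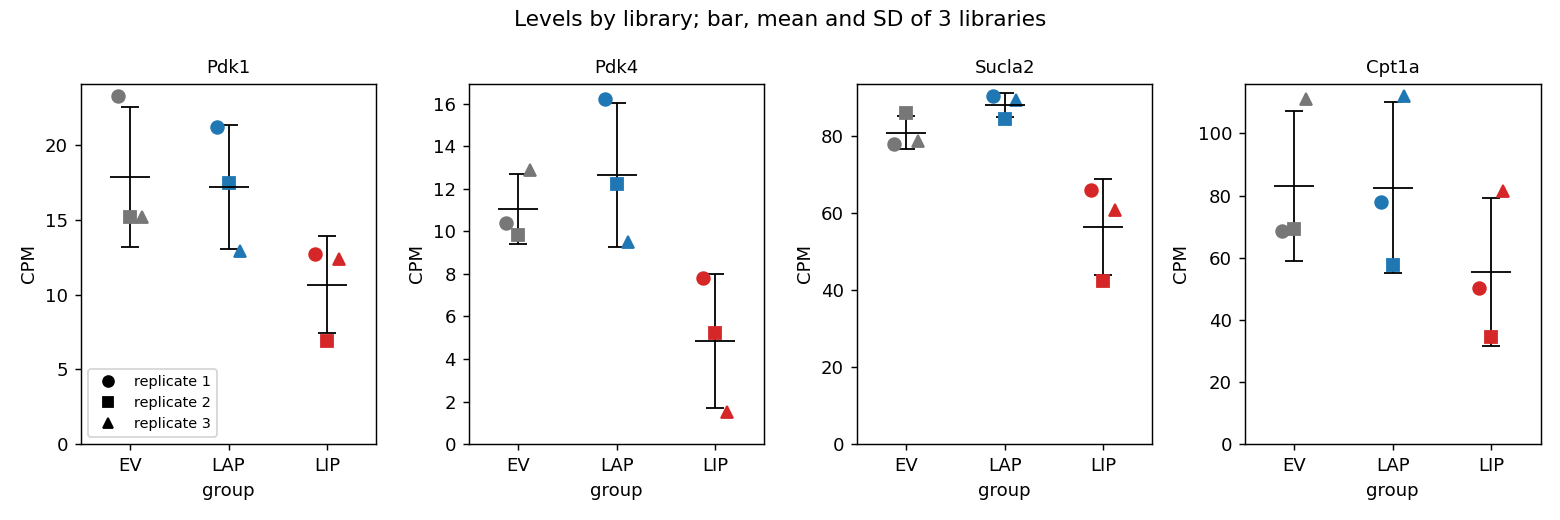
Points give the CPM (y axis, from 0) of Pdk1, Pdk4, Sucla2 and Cpt1a in each library, by group (x axis), with the replicate number as the shape. Bars are the mean and SD of 3 libraries. The LIP libraries lie below all others for Pdk1, Pdk4 and Sucla2, while for Cpt1a LIP 3 overlaps EV and LAP.

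In the citrate cycle proper, Sucla2 stood out from the other enzymes. It encodes the ATP-forming beta subunit of succinyl-CoA ligase, while Suclg2 encodes the GTP-forming one and Suclg1 their common alpha subunit. Sucla2 was counted at 77.9, 85.8 and 78.7 CPM in EV, 90.2, 84.4 and 89.2 CPM in LAP, and 65.9, 42.2 and 60.7 CPM in LIP. All LIP libraries were below all EV and LAP libraries. The log2 fold change was -0.52 ± 0.179 against EV (adjusted p = 0.288) and -0.63 ± 0.219 against LAP (adjusted p = 0.278). With the replicate block the latter was -0.65 ± 0.175 (adjusted p = 0.00844). Without LIP 2 it was -0.36 and -0.46.

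The ratio of Sucla2 to Suclg2 in CPM per kb was also computed within each library. It was chosen after the values were seen. It was 1.05, 1.09 and 1.14 in EV, 1.24, 1.27 and 1.15 in LAP, and 0.918, 0.876 and 0.865 in LIP. LIP 2, which was low in both transcripts, had a ratio between those of the other LIP libraries. No groups overlapped, and the exact permutation test gave the smallest possible p of 0.1 for each pair of groups. Since Sucla2 was already known to be lower in LIP without overlap, the ratio is no separate support for that difference. Both genes have 2 RefSeq transcripts, and members with several were often counted low, so the ratios are those of the table. Suclg2 was at 125 ± 8.02 CPM in EV and 107 ± 22.3 CPM in LIP, with a log2 fold change of -0.23.

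None of the other enzymes of the cycle had an unadjusted p under 0.05. Of the 12 genes of the mitochondrial cycle, 7 were below 0 in LIP against EV, with a median of -0.14 and a range of -0.52 to 0.13, and 10 were below 0 in LIP against LAP, with a median of -0.16. In LAP against EV 10 were above 0, with a median of 0.098 and a highest value of 0.20. Citrate synthase (Cs), which makes citrate from acetyl-CoA and oxaloacetate, was at 436 ± 13.3 CPM in EV, 464 ± 72.6 CPM in LAP and 443 ± 71.8 CPM in LIP. Mdh2, the malate dehydrogenase that closes the cycle, had the highest level per length of the members in the table, with 304 CPM per kb in EV, 318 in LAP and 263 in LIP, ahead of Cs with 149, 159 and 151. For Mdh2 and Cs the LIP libraries overlapped the EV libraries. Of the 3 subunits of NAD-dependent isocitrate dehydrogenase, Idh3b was at 137, 134 and 117 CPM in EV and 143, 138 and 146 CPM in LIP. It was the only member whose LIP libraries lay above all EV libraries without overlap (all genes 6.8%), with a log2 fold change of 0.13. Idh3a and Idh3g had log2 fold changes of 0.09 and 0.11 and overlapped. Idh2, the NADP-dependent mitochondrial isocitrate dehydrogenase, was at 229 ± 23.6 CPM in EV and 196 ± 27 CPM in LIP. Fumarase (Fh1) was at 117 ± 8.68 CPM in EV, 129 ± 24.9 CPM in LAP and 100 ± 19.7 CPM in LIP.

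Cytosolic enzymes parallel steps of the cycle. Aco1, the cytosolic aconitase that also serves as an iron-regulatory protein, was at 133 ± 10.3 CPM in EV and 109 ± 22.1 CPM in LIP (log2 fold change -0.29). Mdh1, which feeds the malate-aspartate shuttle, was at 213, 229 and 197 CPM in EV and 235, 272 and 232 CPM in LAP. Its LAP libraries were above the EV libraries without overlap, as were those of Suclg1 and Acsl4, 3 of the 47 members in all (all genes 3.96%). Pdk2 was the 1 member whose LAP libraries were below EV without overlap (all genes 3.61%).

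The smallest p values in LAP against EV belonged to Acsl4, Echs1 and Pdk2, each with an adjusted p of 0.918. Acsl4, an acyl-CoA synthetase that prefers arachidonic acid, was at 2.08, 1.73 and 2.28 CPM in EV and 2.62, 2.34 and 3.29 CPM in LAP, with a log2 fold change of 0.42 ± 0.249. Echs1, the short-chain enoyl-CoA hydratase, was at 77.2, 78.6 and 77.9 CPM in EV and 71, 153 and 81 CPM in LAP, with a log2 fold change of 0.37 ± 0.229. Its value in LAP 2 set this difference, which was -0.036 without that library. Pdk2 had a log2 fold change of -0.37 ± 0.241.

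Of the acyl-CoA synthetases, which activate fatty acids, Acsl5 was at 307 ± 64.1 CPM in EV, 313 ± 35.3 CPM in LAP and 298 ± 30.1 CPM in LIP. Acsl1, the synthetase known for channelling fatty acids to oxidation or storage, was at 28.9, 26.7 and 28 CPM in EV and 26.6, 22.9 and 19.3 CPM in LIP. These were apart by a narrow gap and the log2 fold change was -0.28. In all, 5 of the 47 members were lower in LIP than in EV without overlap, that is Pdk1, Pdk4, Ogdh, Sucla2 and Acsl1 (all genes 8.83%). Idh3b was the 1 member higher without overlap.

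Cpt1a, the carnitine palmitoyltransferase of the outer membrane and the rate-limiting step of mitochondrial fatty acid oxidation, was outside the rule for named genes and is described because it depended on single libraries. It was at 68.7, 69.4 and 111 CPM in EV, 77.9, 57.6 and 112 CPM in LAP, and 50.2, 34.5 and 81.4 CPM in LIP. The third library was the highest in each group, and LIP 3 overlapped the others. The log2 fold change was -0.59 ± 0.281 against EV (adjusted p = 0.477) and -0.57 ± 0.29 against LAP (adjusted p = 0.587). With the replicate block the latter was -0.59 ± 0.174 (adjusted p = 0.0187). Without LIP 3 it was -0.96 (adjusted p = 0.0387) and -0.95 (adjusted p = 0.0257), the 1 member called lower in each of these fits (all genes 1.29% and 1.74%). Without LIP 2 it was -0.34 and -0.32, with adjusted p of 0.83 and 0.868. Cpt2, which releases the acyl group inside the mitochondrion, and the carrier Slc25a20 had log2 fold changes of -0.094 and 0.15 in LIP against EV, which turned to 0.11 without LIP 2 and to -0.097 without LIP 3. Per length, Cpt1a was at 19.2 CPM per kb in EV, Slc25a20 at 11.9 and Cpt2 at 11.5.

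With the replicate block, 1183 of all genes were called in LIP against LAP, and 190 without it. Each of the 4 members called with the block, Pdk1, Pdk4, Sucla2 and Cpt1a, was lower in LIP than in LAP within all 3 pairs. The block fit compares within these same pairs, so their order is no separate support for the calls. For Pdk1 the third pair was nearly equal, at 12.9 CPM in LAP 3 and 12.4 CPM in LIP 3. Pdk4 was 16.2 and 7.8 CPM in the first pair, 12.2 and 5.24 CPM in the second and 9.51 and 1.52 CPM in the third. Without the block and without LAP 3, Pdk4 was the 1 member called lower (log2 fold change -1.49, adjusted p = 0.0239, all genes 1.93%).

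**Figure D3:**
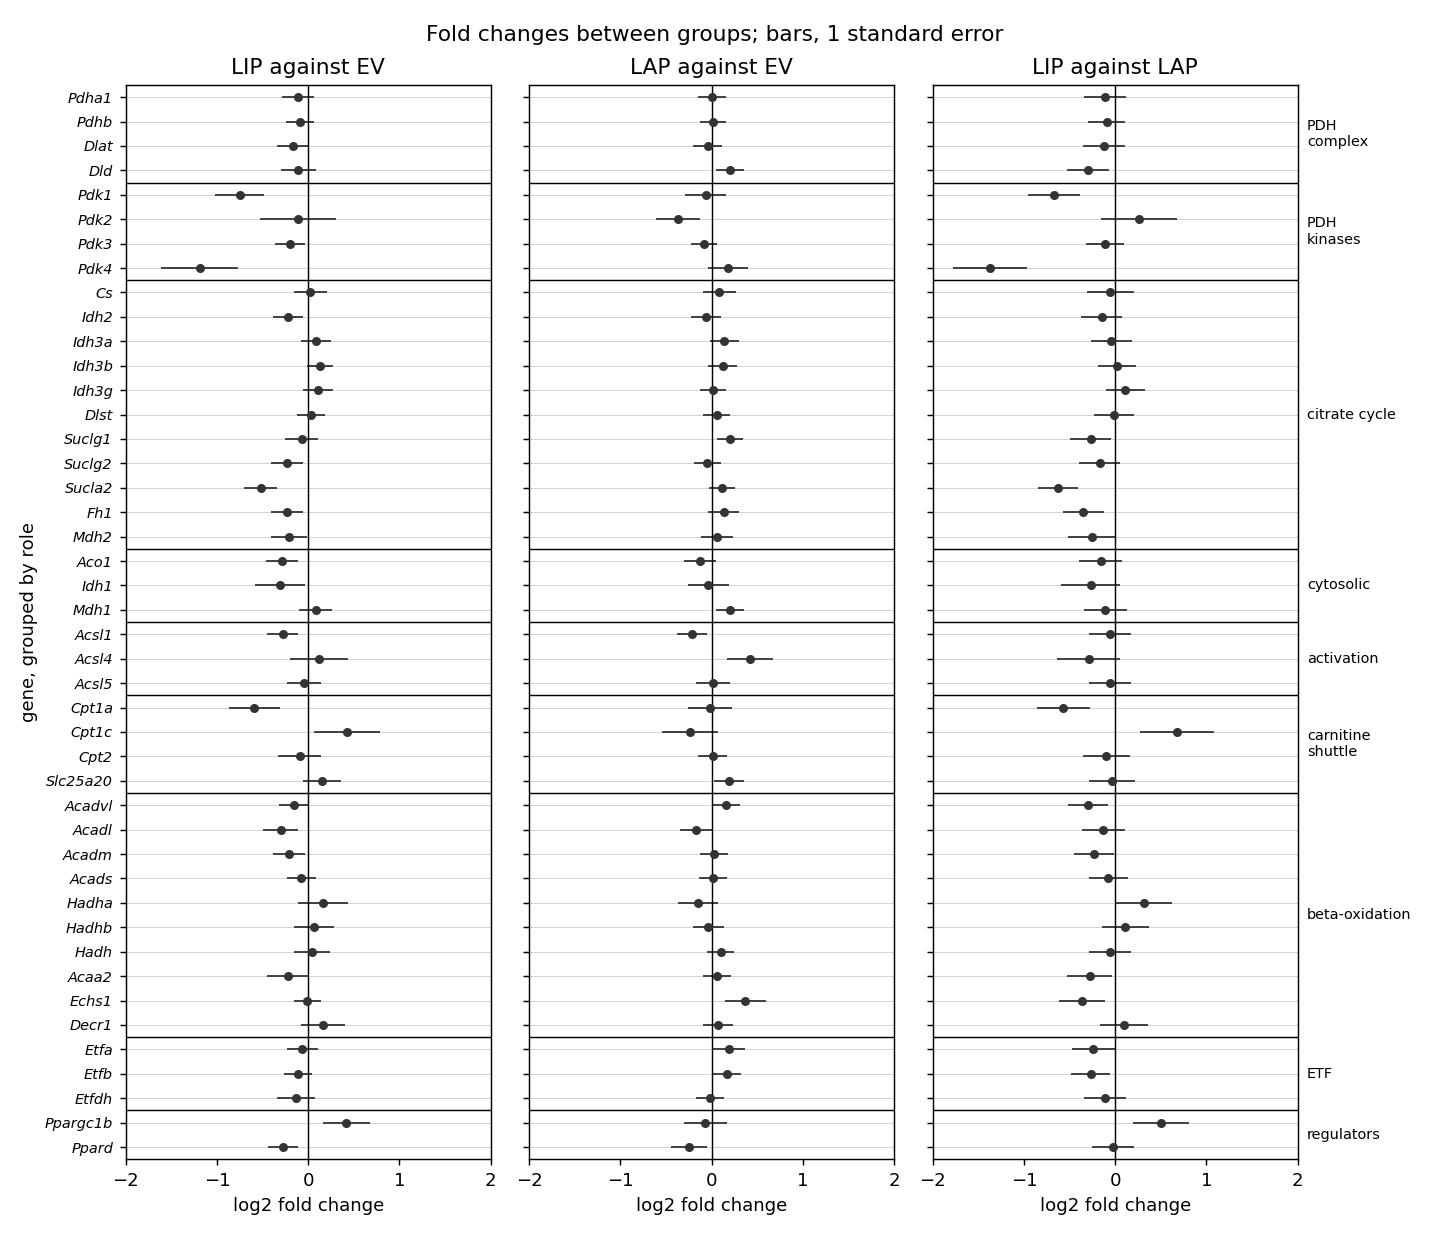
Points give the log2 fold change (x axis) of each of 44 members (y axis, grouped by role) in the 3 comparisons without a block, and bars 1 standard error. None passed an adjusted p of 0.05, and Pdk4, Pdk1, Sucla2 and Cpt1a lie farthest to the left in both comparisons of LIP.

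None of the 10 beta-oxidation enzymes had an unadjusted p under 0.05 in any comparison, and they spread widely within LIP. Their median log2 fold change was -0.04 in LIP against EV, 0.044 in LAP against EV and -0.10 in LIP against LAP, with smallest adjusted p of 0.636, 0.918 and 0.763. The first step is taken by the acyl-CoA dehydrogenases, sorted by chain length. Acadvl (very long) was at 93.8 ± 1.98, 105 ± 8.63 and 84.8 ± 15.9 CPM in EV, LAP and LIP (SD, n = 3). Acadl (long) was at 97.2 ± 10.3, 87.2 ± 17.5 and 78.7 ± 20.7 CPM. All 4 had negative log2 fold changes in LIP against EV, from -0.30 for Acadl to -0.073 for Acads, and their LIP libraries overlapped those of EV. Acadm (medium) was at 48 ± 3.4, 49.3 ± 7.71 and 41.4 ± 8.73 CPM. Acads (short) was at 39 ± 2.07, 39.7 ± 5.03 and 37.1 ± 4.99 CPM. Per length, Acadl and Acadvl led these 4 in EV, with 50.7 and 43.3 CPM per kb, ahead of Acadm and Acads with 23.5 and 20.9. Exons of Acadvl overlap those of Dvl2 on the other strand over 976 bases, and the library kit does not mark strand, so reads there cannot be assigned to either gene.

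Hadha and Hadhb encode the alpha and beta subunits of the mitochondrial trifunctional protein, which takes the remaining steps for long chains. Hadha was at 248, 291 and 339 CPM in EV, 242, 195 and 360 CPM in LAP, and 280, 205 and 495 CPM in LIP. Hadhb was at 176, 209 and 208 CPM in EV, 163, 185 and 233 CPM in LAP, and 200, 142 and 279 CPM in LIP. For both, LIP 3 was the highest and LIP 2 the lowest of LIP, so that LIP spanned the EV range on both sides. The ratio of Hadha to Hadhb in CPM per kb was 0.766 ± 0.0685 in EV, 0.704 ± 0.138 in LAP and 0.795 ± 0.107 in LIP (SD, n = 3), with LAP 2 lowest at 0.545. The groups' ratios overlapped (exact permutation p of 0.6 to 0.7). Decr1, the 2,4-dienoyl-CoA reductase needed for unsaturated chains, was at 38, 40.6 and 43.6 CPM in EV, 34.2, 47.2 and 47.5 CPM in LAP, and 35.4, 33.3 and 68 CPM in LIP. Hadh and Acaa2, which oxidise and cleave shorter chains, followed the same order in LIP, with 65.7, 57 and 98 CPM for Hadh and 29.6, 22.5 and 46.5 CPM for Acaa2. LIP 3 was the highest of all 9 libraries for 5 of the 10 enzymes and LIP 2 the lowest for 7.

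**Figure D4:**
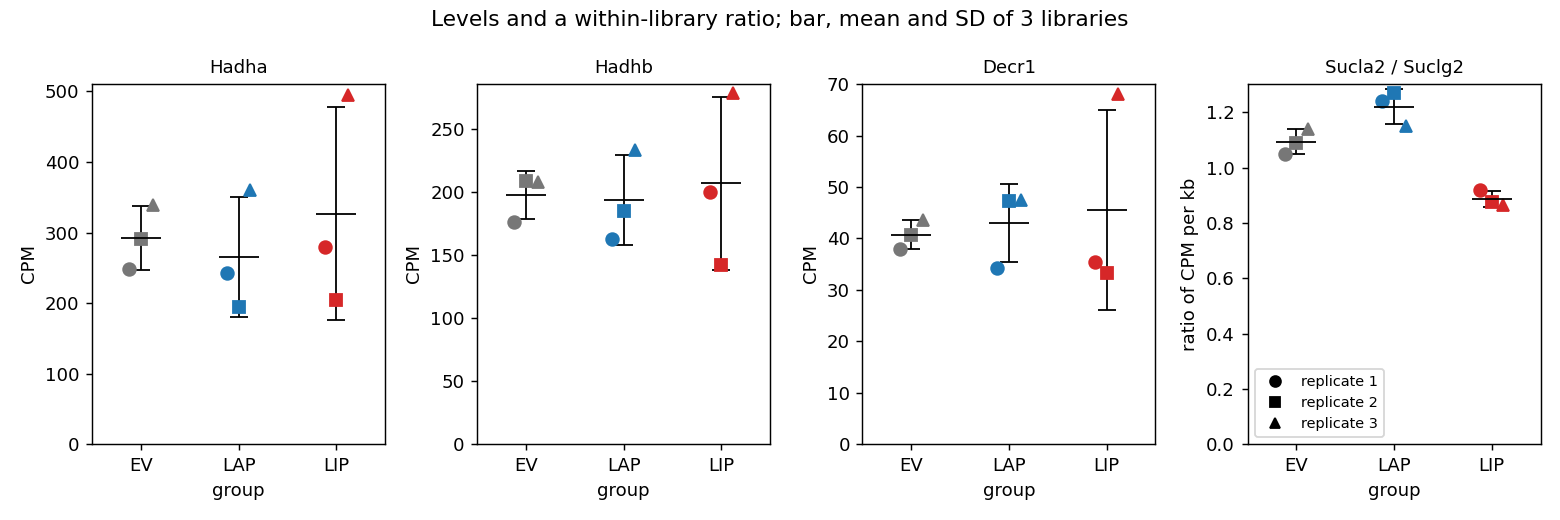
Points give the CPM of Hadha, Hadhb and Decr1 (y axes from 0) and, at the right, the ratio of Sucla2 to Suclg2 in CPM per kb, in each library by group (x axis), with the replicate number as the shape. Bars are the mean and SD of 3 libraries. For the 3 enzymes LIP 3 lies above and LIP 2 below nearly all other libraries, while the ratio of the ligase subunits is 0.865 to 0.918 in LIP and 1.05 to 1.27 in EV and LAP.

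Replicate 3 was the highest library of its group in all 3 groups for 7 of the 44 members (15.9%), that is Acsl4, Cpt1a, Cpt2, Acadl, Hadha, Acaa2 and Decr1, and for 11% of all genes. Replicate 1 was the highest in all 3 groups for 4 members (9.09%), Pdk1, Mdh2, Aco1 and Acsl1, and for 7.85% of all genes. What the number marks is not given in the sources used here.

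The electron transfer flavoprotein takes up electrons from the acyl-CoA dehydrogenases and passes them to Etfdh, its ubiquinone oxidoreductase. Its subunits Etfa and Etfb were close to each other per length, with 91.2 and 93 CPM per kb in EV, 105 and 106 in LAP, and 87.4 and 86.1 in LIP. Etfdh had 19.8, 19.6 and 18 CPM per kb. All 3 log2 fold changes in LIP against EV were between -0.13 and -0.062, with a smallest adjusted p of 0.796, and those of Etfa and Etfdh changed sign without LIP 2. Etfa was at 184 CPM in LAP 2, above the 118 to 132 CPM of EV.

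Among the regulators, only Ppard and Ppargc1b were measured above a few counts. Ppard, the PPAR of most tissues and known to drive Pdk4, Cpt1a and Angptl4, was at 48.3, 40.2 and 51.6 CPM in EV, 44.5, 28.5 and 45.6 CPM in LAP, and 39.6, 41.7 and 34.2 CPM in LIP. LIP overlapped EV, and the log2 fold change was -0.28. Ppargc1b, a PGC-1 coactivator, was at 4.2, 3.91 and 3.1 CPM in EV, 4.01, 2.91 and 3.81 CPM in LAP, and 4.78, 6.06 and 4.17 CPM in LIP. Its LIP libraries lay above all LAP libraries and overlapped EV at the lower end, with a log2 fold change of 0.50 against LAP and 0.42 against EV. Ppargc1a had 4 reads and Ppara 2 reads over all 9 libraries, at or under 1 per library, so no fold change is given for them.

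Some members were counted very low or not at all. Acsl3 was listed at 0 in every library. Ogdh, the first subunit of the 2-oxoglutarate dehydrogenase complex, had 79 reads over the 9 libraries, or 0.164 to 0.401 CPM, while its partner Dlst was at 214 CPM in EV. Idh1, Acsl4, Pdk2 and Cpt1c were at 0.74 to 5.88 CPM in all libraries. Of the 16 members with more than 1 protein-coding RefSeq transcript, 8 had a mean under 5 CPM, and of the 32 with 1 transcript this held for Ppargc1a alone. Of genes outside the list with more than 1 transcript, Myc was listed at 0 and Stat3 at 0.393 to 0.996 CPM in all libraries. Gapdh and Cebpb, also with more than 1, were at 87.1 to 147 CPM and 25.2 to 33.3 CPM, so not all such genes were low. The low values are values of the table and not evidence that the transcript was lacking, and the cause was not tested. Exons of some members also overlap those of other genes, over 603 bases with Map3k15 on the other strand for Pdha1, 617 bases with Gm45233 on the same strand for Etfb and 167 bases with Zdhhc6 on the other strand for Acsl5, and their reads cannot be told apart there.

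Of 77 other genes of these pathways, 71 had counts in LIP against EV and 72 in the other comparisons, and none passed an adjusted p of 0.05. At an unadjusted p under 0.05, 3 were lower in LIP than in EV, 6 were lower in LIP than in LAP and 1 was lower in LAP than in EV, and 0 were higher in each. Over all genes the shares that were lower were 6.75%, 5.98% and 1.34%. Their median log2 fold changes were -0.091, -0.098 and 0.0074, respectively for LIP against EV, LIP against LAP and LAP against EV. By list, the medians in LIP against EV were -0.13 for 18 further genes of pyruvate entry and the citrate cycle, -0.011 for 20 of mitochondrial fatty acid oxidation, -0.18 for 14 of peroxisomal oxidation and 0.099 for 19 partners and targets of PPAR and PGC-1. Fabp4, a fatty acid-binding protein of adipocytes and macrophages, was at 1.87 ± 0.637 CPM in EV, 1.9 ± 0.721 CPM in LAP and 0.704 ± 0.244 CPM in LIP. Its log2 fold change was -1.42 ± 0.384 against EV (adjusted p = 0.154) and -1.42 ± 0.42 against LAP (adjusted p = 0.143). Abcd2, a peroxisomal importer of very-long-chain acyl-CoA, was at 2.99 ± 0.212, 3.39 ± 1.11 and 1.49 ± 0.337 CPM in EV, LAP and LIP. Its log2 fold change was -1.01 ± 0.286 against EV (adjusted p = 0.181) and -1.17 ± 0.355 against LAP (adjusted p = 0.164). The LIP libraries of both genes did not overlap those of EV or LAP.

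Nrip1, a corepressor of nuclear receptors, had a log2 fold change of -0.52 ± 0.187 in LIP against EV (adjusted p = 0.314). In LIP against LAP the others named were Acot1, a cytosolic acyl-CoA thioesterase, with -1.04 ± 0.396 (adjusted p = 0.343), Angptl4, an inhibitor of lipoprotein lipase and known PPAR target, with -1.06 ± 0.455 (adjusted p = 0.451), and Acadsb, the short/branched-chain acyl-CoA dehydrogenase, with -0.53 ± 0.234 (adjusted p = 0.482). With the replicate number as a block, Fabp4, Abcd2, Acot1, Angptl4 and Acadsb passed the threshold in LIP against LAP, with adjusted p of 0.00259, 0.00369, 0.0205, 4.04e-08 and 0.0354. That fit called 4.79% of all genes lower. These are the other pathway genes already named in this comparison, and the block result is not given for the rest. Leaving out single libraries moved Angptl4 from -2.02 (without LIP 1) to -0.60 (without LIP 3), Acot1 from -1.49 (without LIP 1) to -0.81 (without LIP 2) and Acadsb from -0.77 (without LIP 3) to -0.32 (without LIP 2). Angptl4 was at 56.4 ± 23.5 CPM in LAP and 26.7 ± 23.4 CPM in LIP, and its groups overlapped. In LAP against EV, Nrf1, a transcription factor of mitochondrial genes, had a log2 fold change of -1.38 ± 0.436 (adjusted p = 0.918) at 0.606 ± 0.223 CPM in EV and 0.23 ± 0.025 CPM in LAP.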

How the data were processed

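RNA-seq counts of 9 libraries (EV, LAP and LIP, 3 each) were analysed. The deposited values are raw counts per gene symbol. Per the study's methods and the submitters' processing notes, the authors extracted reads with bcl2fastq 1.8.3, aligned them with TopHat 1.4.1 and counted them with HTSeq 0.5.4. The strand setting is not given in the sources used here, and the genome is written as GRCh38/mm10. The 9 sample columns were all used (unused columns: 0). The members, lists and tests were chosen with earlier results of these data known.

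For each pair of groups, genes with at least 1 count in the 6 libraries were scaled with TMM and tested with edgeR 4.0.16 (quasi-likelihood, R 4.3.3), with Benjamini-Hochberg adjustment over all genes tested and a threshold of 0.05. The standard error was derived from the F statistic. CPM used TMM factors over all 9 libraries, and CPM per kb the exon length of GENCODE M21. A gene was named with its test at an unadjusted p under 0.05, or as 1 of the 3 smallest p values where fewer qualified. Of the other pathway genes up to 5 were named in each comparison. Cpt1a was added after its values were seen. Scripts were tested on simulated data.

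Replicate numbers come from the labels. Deviations from group means of same-numbered libraries correlated at 0.421 to 0.577 in LIP and LAP, at 0.223 to 0.546 in LAP and EV, and at -0.119 to 0.311 in LIP and EV, over 11535 genes. Same-numbered libraries thus deviated together in the first 2 comparisons. In the last, not all correlations were positive and pairing is unclear. The main fits and the exact permutation tests nevertheless used no pairing in any comparison, and the replicate block was an alternative. Other scalings, filters, robust estimation, a joint model of the 9 libraries, the replicate block, leaving out each library, and the tests of DESeq2 1.42.0 and edgeR (exact) were tried in place of these settings. Promoters were searched in RefSeq's table for GRCm38.p6.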

Additional observations from a re-analysis of the deposited data

How the results depend on the processing

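Of the 15 alternatives in each comparison, most left 0 members past the threshold in either direction. The number of members lower in LIP than in LAP was 4 with the replicate block, and 0 to 1 when each library was left out in turn (Cpt1a without LIP 3 and Pdk4 without LAP 3). In LIP against EV it was 0 to 1 when each library was left out (Cpt1a without LIP 3) and 0 with the replicate block, where 467 genes passed in all against 72. The same-numbered LIP and EV libraries did not all deviate together. Their deviations correlated at -0.119 to 0.311, with a mean of 0.145, so whether the number pairs them is unclear. The replicate block called 54 genes and 0 members in LAP against EV, against 11 genes without it, and changed no other call of a member. The median log2 fold change ranged from -0.23 to -0.0031 in LIP against EV and from -0.29 to -0.024 in LIP against LAP when each library was left out. In LAP against EV it was 0.007 to 0.053, and -0.014 with scaling by total counts. The log2 fold change of Echs1 in LAP against EV ranged from -0.036 (without LAP 2) to 0.56 when each library was left out. Acsl4, Pdk2 and Nrf1, the other genes named by the rule in that comparison, kept their direction. Pdk4, at 0.18 there, changed direction under at least 1 alternative. Of the 47 members, 22 changed direction under at least 1 of the 15 alternatives in LIP against EV, 27 in LAP against EV and 24 in LIP against LAP. Pdk1, Pdk4, Sucla2 and Cpt1a kept theirs in both comparisons of LIP. Of the 18203 genes tested in LIP against EV, 0 passed with at least 10 counts required in every library (11505 tested), 4 with filterByExpr, 321 with DESeq2 and 339 with the edgeR exact test. In LIP against LAP, 190 genes passed as reported, 0 and 2 with these filters, 255 with DESeq2 and 266 with the exact test. No member was called in these fits. Leaving out each library moved the number of genes called to between 22 and 367 in LIP against EV, 6 and 62 in LAP against EV, and 7 and 448 in LIP against LAP. With 3 libraries a group, differences of the size of their standard errors, at a median of 0.182 (log2) for the members in LIP against EV, could not be told from 0. Larger ones did not pass the quasi-likelihood test either, as for Sucla2 with -0.52 ± 0.179 (adjusted p = 0.288). Pdk4 was at -1.19 ± 0.421 (adjusted p = 0.307). The lack of calls therefore does not exclude changes of that size.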
